A study of Mus musculus with 2 samples.

Results

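The tumour necrosis factor (TNF) superfamily was described in polyadenylated RNA from the lung of a single C57BL/6J mouse, a female of an inbred strain that was adult at 10 weeks of age. Members were the protein-coding genes with a symbol starting in Tnfsf or Tnfrsf and a number, together with Tnf, Lta, Ltb, Ltbr, Fas, Fasl, Cd27, Cd70, Cd40, Cd40lg, Eda, Edar, Eda2r and Ngfr. This rule used no measured value and gave 45 of 43346 gene rows, 18 of them ligands and 27 receptors. The labels give no treatment or altered allele. RNA of the lung tissue had been purified on columns meant for lipid-rich tissue and sequenced in 2 libraries. Technical replicate 2, made in a later year than the work that replicate 1 belongs to, and technical replicate 1 come from a single biological replicate. The design thus has 1 group, and each SD has n = 2 libraries of 1 animal behind it. An SD here measures the spread between technical replicates, not the spread between animals. The labels do not say whether both libraries share 1 RNA extraction, so a difference in the tissue sampled may be part of that spread.

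TNF superfamily ligands are made as trimeric membrane proteins that can be shed by proteases, and each binds 1 or a few receptors with cysteine-rich repeats. Receptors with a death domain can start apoptosis or necroptosis, and those that recruit TRAF adaptors switch on the transcription factor NF-kappaB and stress kinases. In the lung the family is known for inflammation, for lymphoid tissue around the airways, for B cell survival and for the turnover of epithelial cells. A library of lung tissue mixes all of these cells, so fewer cells of a type and less RNA per cell cannot be told apart.

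Levels are given in TPM, the authors' length-corrected abundance that sums to the same total in each library, and a member was counted as detected at a TPM of at least 1. Replicate 2 held 17110882 expected counts and replicate 1 held 16104442. For the ratio between libraries, replicate 2 over replicate 1, expected counts were scaled by library and put on a log2 scale. A fold of more than 2 was called higher or lower among genes whose mean TPM reached 1. There is 1 library on each side, so no p-value is given, and the 95% intervals cover counting error only. Where named, the GC trend is a smooth curve of this log2 ratio on transcript GC content over all tested genes, and subtracting it leaves a remainder on the same scale. GC content here is the average over a gene's annotated transcripts, expressed or not. Remainders were not recomputed with the GC content of the main transcript, which differs from the average in some members. The libraries differed across the whole transcriptome: of 14139 tested genes, 39.3% lay more than 2-fold higher in replicate 2, 28.2% more than 2-fold lower, and 67.5% passed 2-fold in either direction. Of the lung epithelial markers, Scgb1a1 was the highest, at 174257 TPM in replicate 2, against 17498 TPM in replicate 1. As TPM sums to the same total in each library, the members' TPM share what this gene leaves. Sftpc stood at 39612 TPM in replicate 2, against 287 TPM in replicate 1, and Ager at 2508 and 13.7 TPM. Of the 5 epithelial markers, 5 reached 1 TPM in replicate 2 and 4 in replicate 1. Thymocyte markers were at or near 0, with Ptcra at 0 TPM in both libraries and Rag1 at 0 TPM in replicate 2, against 0.04 TPM in replicate 1. The 3 heart muscle markers summed to 913 TPM in replicate 2 compared with 91.0 TPM in replicate 1, and all 3 were above a TPM of 1 in both. Macrophage and monocyte markers summed to 11594 TPM in replicate 2 and 5750 in replicate 1, and adipocyte markers to 580 and 559. Lower sums in replicate 2 were those of fibroblast markers, 352 and 755 TPM, endothelial markers, 1262 and 1686, and skin markers, 2.82 and 4.58. Endothelial markers went both ways, with Cldn5 at 607 and 0.43 TPM and Calcrl at 242 and 1410 TPM. The part of these cell types in the members' levels was not tested.

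Coding sequence of 8 members, chosen after their values were seen, is shown here because the ratio between the libraries followed the base composition of the members, with exceptions, as described further on. Each stretch is the central 90 bases of the longest coding exon of the member's main transcript, written 5′ to 3′ on the coding strand, from GENCODE release M21 on GRCm38 (the assembly that mm10 also names). Capitals mark runs of 5 or more G or C. The first 3 members, rich in GC, were more abundant in replicate 2, and the next 3, poorer in GC, in replicate 1. The last 2 are exceptions, with Tnfrsf21 more abundant in replicate 1 and Tnfrsf22 in replicate 2.
Ltb (chr17:35195879-35195968, plus strand, exon 3 of 3): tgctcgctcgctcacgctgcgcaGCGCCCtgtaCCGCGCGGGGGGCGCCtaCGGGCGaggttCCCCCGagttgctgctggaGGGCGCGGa
Ltbr (chr6:125307307-125307396, minus strand, exon 10 of 10): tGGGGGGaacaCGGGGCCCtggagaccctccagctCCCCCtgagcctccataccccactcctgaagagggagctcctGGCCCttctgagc
Tnfrsf1a (chr6:125361794-125361883, plus strand, exon 10 of 10): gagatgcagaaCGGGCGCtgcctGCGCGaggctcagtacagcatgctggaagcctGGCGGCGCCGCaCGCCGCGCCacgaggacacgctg
Fas (chr19:34327112-34327201, plus strand, exon 9 of 9): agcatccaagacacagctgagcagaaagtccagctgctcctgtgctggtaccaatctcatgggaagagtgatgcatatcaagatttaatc
Tnfsf10 (chr3:27335398-27335487, plus strand, exon 5 of 5): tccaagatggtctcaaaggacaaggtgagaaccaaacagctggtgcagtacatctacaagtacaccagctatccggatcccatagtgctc
Tnfrsf26 (chr7:143618329-143618418, minus strand, exon 3 of 8): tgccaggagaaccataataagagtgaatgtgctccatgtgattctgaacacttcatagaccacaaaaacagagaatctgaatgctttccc
Tnfrsf21 (chr17:43037876-43037965, plus strand, exon 2 of 6): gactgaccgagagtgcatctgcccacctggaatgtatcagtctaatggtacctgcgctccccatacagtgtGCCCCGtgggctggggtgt
Tnfrsf22 (chr7:143635916-143636005, minus strand, exon 1 of 1): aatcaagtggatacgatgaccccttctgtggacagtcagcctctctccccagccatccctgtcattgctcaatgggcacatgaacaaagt
GC content of these stretches was 75.6% for Ltb, 67.8% for Ltbr and 71.1% for Tnfrsf1a, against 46.7% for Fas, 48.9% for Tnfsf10 and 41.1% for Tnfrsf26, and was 58.9% for Tnfrsf21 and 51.1% for Tnfrsf22. Over the whole main transcript, runs of 5 or more G or C numbered 29.3 per kilobase in Ltb, 24.7 in Ltbr and 17.6 in Tnfrsf1a. The same density was 4.73 in Fas, 4.81 in Tnfsf10 and 4.51 in Tnfrsf26. It was 15.7 in Tnfrsf21 and 3.37 in Tnfrsf22.

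Of the 45 members, 29 were detected in replicate 2 and 22 in replicate 1. Detection in both libraries held for 19 members, or 42.2%, against 49.9% of 21474 protein-coding genes. A further 10 members were detected in replicate 2 alone, 3 in replicate 1 alone and 13 in neither. Receptors summed to 354 TPM in replicate 2, against 248 TPM in replicate 1, with 13 of 27 detected in both. Ligands summed to 153 TPM in replicate 2, against 84.2 TPM in replicate 1, with 6 of 18 detected in both. Receptor transcripts thus outweighed ligand transcripts in each library.

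**Figure D1:**
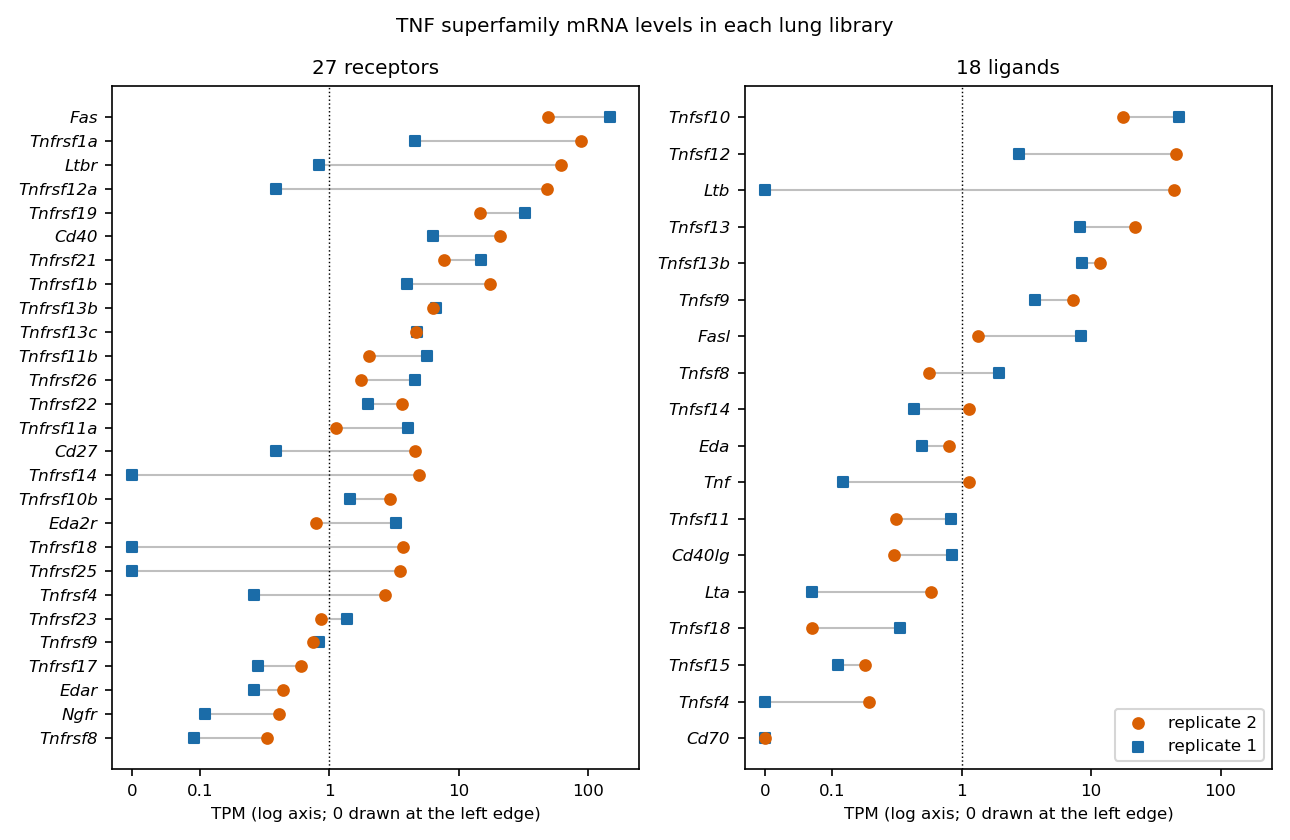
TPM of every receptor (left) and ligand (right) on a log axis, ordered by mean, with replicate 2 as circles, replicate 1 as squares and the line at 1 TPM as the detection level; values of 0 are drawn at the left edge. Fas and Tnfsf10 led replicate 1 at 148 and 47.6 TPM, while Tnfrsf1a led replicate 2 at 87.8 TPM and Ltb was at 43.4 TPM there and 0 in replicate 1.

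Among the receptors with a death domain, Fas and Tnfrsf1a carried most of the signal. Fas, the receptor of Fas ligand that starts apoptosis (ENSMUSG00000024778.8, chromosome 19, 34290666 to 34327772, plus strand), was at 49.1 TPM in replicate 2 compared with 148 TPM in replicate 1, a mean of 98.7 ± 70.1 TPM (SD, n = 2). It had the highest mean of the family and stood at the 90.1st percentile of protein-coding genes in replicate 2 and the 96.2nd in replicate 1. Scaled counts of Fas were 2.70-fold lower in replicate 2 (95% interval 2.49 to 2.91), and its log2 ratio of -1.43 was -0.16 with the GC trend subtracted. Tnfrsf1a, the main receptor of soluble TNF (ENSMUSG00000030341.13, chromosome 6, 125349362 to 125362484, plus strand), was at 87.8 TPM in replicate 2, against 4.62 TPM in replicate 1. Its mean was 46.2 ± 58.8 TPM (SD, n = 2), and its scaled counts were 30.4-fold higher in replicate 2 (24.0 to 39.1). The order of these receptors was therefore opposite in the libraries, Tnfrsf1a above Fas in replicate 2 and Fas above Tnfrsf1a in replicate 1.

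The other receptors with a death domain were lower. Tnfrsf21, also called death receptor 6, was at 7.64 TPM in replicate 2, against 14.9 TPM in replicate 1. Tnfrsf10b, the mouse death receptor for TRAIL, was at 2.97 TPM in replicate 2 compared with 1.44 TPM in replicate 1. Tnfrsf25, a death receptor of T cells also called DR3, was at 3.50 TPM in replicate 2 from 66 counts and had 0 counts in replicate 1, which allows up to 0.296 TPM at 3 counts. Ngfr, the neurotrophin receptor p75, and Edar, the ectodysplasin receptor of hair and gland buds, stayed below 1 TPM, at 0.11 to 0.44 TPM over both genes and libraries. Of the 7 receptors of this kind, 4 were detected in both libraries.

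Death ligands were led by Tnfsf10. This gene encodes TRAIL (ENSMUSG00000039304.7, chromosome 3, 27317028 to 27342427, plus strand), and its level was 17.7 TPM in replicate 2, against 47.6 TPM in replicate 1, a mean of 32.7 ± 21.1 TPM (SD, n = 2). Scaled counts of Tnfsf10 were 2.44-fold lower in replicate 2 (2.29 to 2.61), a log2 ratio of -1.29 that was -0.74 with the GC trend subtracted. The GC content of Tnfsf10 was 47.5% averaged over annotated transcripts and 42.8% in its main transcript. Fasl, the ligand of Fas made by cytotoxic lymphocytes, was at 1.34 TPM in replicate 2, against 8.38 TPM in replicate 1. Its expected counts, 37 in replicate 2 and 55 in replicate 1, lay closer together than its TPM, with scaled counts 1.89-fold lower in replicate 2 (1.23 to 2.96). Tnf itself was at 1.13 TPM from 26 counts in replicate 2 and 0.12 TPM from 2 counts in replicate 1.

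Decoy receptors bind a ligand without passing on its signal. Tnfrsf11b, the soluble decoy osteoprotegerin, was at 2.04 TPM in replicate 2 compared with 5.66 TPM in replicate 1, 2.50-fold lower in replicate 2 by scaled counts (1.92 to 3.29). With the GC trend subtracted, its log2 ratio of -1.32 turned to 0.19. Tnfrsf22 and Tnfrsf23, mouse decoys for TRAIL, are neighbouring genes of similar sequence with fractional expected counts, so the division of reads between them is uncertain. Tnfrsf22 was at 3.62 TPM in replicate 2, against 1.98 TPM in replicate 1. Tnfrsf23 was at 0.87 TPM in replicate 2, against 1.37 TPM in replicate 1. Its expected counts, 41.7 and 26.6, went the other way, with scaled counts 1.22-fold higher in replicate 2 (0.735 to 2.06). All 3 decoys passed a mean TPM of 1, with 1 higher, 1 lower and 1 within 2-fold, against 39.3% higher and 28.2% lower over all tested genes.

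Of the lymphotoxin axis, which organises lymphoid tissue, Ltb, Ltbr and Tnfsf14 were detected in replicate 2, Lta was not, and none was detected in replicate 1. Ltb, the membrane anchor of lymphotoxin (ENSMUSG00000024399.5, chromosome 17, 35194439 to 35196320, plus strand), was at 43.4 TPM from 674 counts in replicate 2 and at 0 counts in replicate 1. With replicate 1 set at the floor of 3 counts, which corresponds to 0.273 TPM, Ltb was 176-fold higher in replicate 2. The exact 95% interval starts at 143-fold. Ltbr, its receptor on stromal and epithelial cells (ENSMUSG00000030339.7, chromosome 6, 125306571 to 125313885, minus strand), was at 62.3 TPM in replicate 2 compared with 0.84 TPM in replicate 1. Scaled counts of Ltbr were 82.1-fold higher in replicate 2 (51.8 to 139), from 1883 and 18 counts. Lta, the soluble lymphotoxin, was at 0.58 TPM in replicate 2, against 0.07 TPM in replicate 1, and Tnfsf14, called LIGHT, at 1.13 TPM in replicate 2, against 0.43 TPM in replicate 1. No ligand of this class was detected in replicate 1.

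Of the B cell survival system, Tnfsf13b, Tnfrsf13c and Tnfrsf13b lay within 2-fold between the libraries, while the ligand Tnfsf13, given below with Cd40, did not. Tnfsf13b, which encodes BAFF, was at 11.6 TPM in replicate 2 compared with 8.45 TPM in replicate 1, and its receptor on B cells, Tnfrsf13c, was at 4.67 TPM in replicate 2, against 4.77 TPM in replicate 1. Tnfrsf13b, called TACI, was at 6.28 TPM in replicate 2, against 6.70 TPM in replicate 1, a mean of 6.49 ± 0.297 TPM (SD, n = 2). The log2 ratio was -0.06 for Tnfrsf13b and 0.13 for Tnfrsf13c, and with the GC trend subtracted -3.85 and -3.74. These remainders rest on 57.3% and 57.5% GC averaged over annotated transcripts. The main transcripts have 50.5% and 50.6%, so the remainders are not read as a property of these receptors. Tnfrsf17, the receptor of plasma cells, was below 1 TPM in both libraries, at 0.60 TPM in replicate 2 compared with 0.28 TPM in replicate 1. The 5 B cell markers did not behave as 1 list: they summed to 207 TPM in replicate 2, against 110 TPM in replicate 1, but Cd79a was at 82.2 and 2.66 TPM while Ms4a1 was at 17.4 and 83.6 TPM. Of these 5 markers, 5 reached 1 TPM in replicate 2 and 4 in replicate 1, and none was at 0.

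Tnfsf13, which encodes the B cell and plasma cell factor APRIL, was at 21.7 TPM in replicate 2, against 8.13 TPM in replicate 1, a mean of 14.9 ± 9.60 TPM (SD, n = 2). Scaled counts were 2.75-fold higher in replicate 2 (2.24 to 3.39), a log2 ratio of 1.45 that was 0.28 with the GC trend subtracted. The division of reads between Tnfsf13 and the read-through gene Tnfsfm13 is uncertain, as described further on. Cd40, the receptor through which T cells activate B cells and macrophages, was at 20.7 TPM in replicate 2 compared with 6.28 TPM in replicate 1, 3.02-fold higher in replicate 2 (2.44 to 3.76). The log2 ratio of Cd40, 1.59, turned to -0.11 with the GC trend subtracted. Its GC content was 53.3% averaged over annotated transcripts and 51.5% in its main transcript. The ligand Cd40lg, made by activated T cells, was at 0.30 TPM in replicate 2, against 0.84 TPM in replicate 1. The receptor was thus the higher of the pair in both libraries.

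Receptors of the tissue class included several of the largest differences. Tnfrsf12a, the injury-induced receptor Fn14 (ENSMUSG00000023905.10, chromosome 17, 23675445 to 23677468, minus strand), was at 48.4 TPM from 595 counts in replicate 2 and 0.39 TPM from 3 counts in replicate 1. The ratio of its scaled counts was 156, with a wide counting interval of 53.0 to 757. Tnfsf12, its ligand TWEAK (ENSMUSG00000097328.3, chromosome 11, 69686250 to 69695849, minus strand), was at 45 TPM in replicate 2, against 2.78 TPM in replicate 1, 17.0-fold higher in replicate 2 (12.3 to 24.1). The log2 ratio of Tnfsf12, 4.07, turned to -0.63 with the GC trend subtracted. Both partners of this pair stood high in replicate 2 and low in replicate 1. For Tnfsf12 this rests on an uncertain division of reads with the read-through gene Tnfsfm13, which shares 48.3% of its exon bases. Tnfsfm13 held 585 expected counts in replicate 2 and 508 in replicate 1, and the interval of Tnfsf12 does not cover this uncertainty.

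Tnfrsf19, called TROY, differed in the other direction, at 14.7 TPM in replicate 2 compared with 32.7 TPM in replicate 1, a 1.93-fold lower scaled count in replicate 2 (1.78 to 2.10) that lay just inside 2-fold. With the GC trend subtracted, the log2 ratio of Tnfrsf19, -0.95, was -2.39 and passed 2-fold. That remainder rests on 52.8% GC averaged over annotated transcripts, while the main transcript of Tnfrsf19 has 48.8%. Tnfrsf1b, the TNF receptor of immune and endothelial cells, was at 17.6 TPM in replicate 2, against 3.96 TPM in replicate 1. Tnfrsf26, a mouse receptor of the same chromosome 7 cluster as Tnfrsf22 and Tnfrsf23, was at 1.77 TPM in replicate 2, against 4.60 TPM in replicate 1. Of the receptors known from bone and skin, Tnfrsf11a, called RANK, was at 1.13 TPM in replicate 2 compared with 4.09 TPM in replicate 1, and Eda2r, a receptor for an ectodysplasin isoform, was at 0.79 TPM in replicate 2, against 3.27 TPM in replicate 1. Scaled counts in replicate 2 were 3.07-fold lower for Tnfrsf11a (2.31 to 4.11) and 3.57-fold lower for Eda2r (2.57 to 5.03). With the GC trend subtracted, the log2 ratio of Tnfrsf11a, -1.61, was -1.55 and stayed past 2-fold, while that of Eda2r, -1.82, was -0.51. The GC content of Tnfrsf11a was 49.2% averaged over annotated transcripts and 47.9% in its main transcript. The ligands of these 2 receptors, Tnfsf11 (RANKL) and Eda, stayed below 1 TPM in both libraries, at 0.31 to 0.83 TPM.

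Of 6 costimulatory receptors of lymphocytes, 4 were detected in replicate 2 and 0 in replicate 1, against 13015 and 11214 of 21474 protein-coding genes. Tnfrsf14, called HVEM, was at 4.94 TPM from 44 counts in replicate 2, and Tnfrsf18, called GITR, at 3.69 TPM from 58 counts, and both had 0 counts in replicate 1. A count of 0 there allows up to 0.482 TPM of Tnfrsf14 and 0.390 TPM of Tnfrsf18 at 3 counts. Cd27 was at 4.6 TPM in replicate 2, against 0.39 TPM in replicate 1, and Tnfrsf4, called OX40, at 2.70 TPM in replicate 2 compared with 0.26 TPM in replicate 1. Tnfrsf9 (4-1BB) and Tnfrsf8 (CD30) were below 1 TPM in both libraries, at 0.09 to 0.84 TPM. The 6 markers of T and NK cells summed to 60.8 TPM in replicate 2, against 32.4 TPM in replicate 1, but did not behave as 1 list. Nkg7 was at 24.45 and 1.53 TPM, while Cd3g was at 13.66 and 16.35 TPM and Cd8a at 3.11 and 3.40 TPM. Cd3d, Cd3e and Cd4 had the higher TPM in replicate 2. Of the T and NK cell markers, 6 reached 1 TPM in replicate 2 and 5 in replicate 1, and none was at 0. Their part in the receptors' levels was not tested.

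Of the costimulatory ligands, Tnfsf9 (4-1BB ligand) was at 7.27 TPM in replicate 2, against 3.66 TPM in replicate 1, 2.19-fold higher by scaled counts in replicate 2 (1.53 to 3.18), a log2 ratio of 1.12 that turned to -0.17 with the GC trend subtracted. Tnfsf8, the CD30 ligand, was at 0.56 TPM in replicate 2 compared with 1.95 TPM in replicate 1, 3.15-fold lower in replicate 2 (2.06 to 4.90), a log2 ratio of -1.64 that was -0.08 with the GC trend subtracted. The remaining members of the class, Tnfsf4, Tnfsf15, Tnfsf18 and Cd70, were below 1 TPM in both libraries. Cd70 had 0 counts in both libraries, which allows up to 0.289 TPM in replicate 2, against 0.405 TPM in replicate 1 at 3 counts. Tnfsf4 had 5 counts in replicate 2 and 0 in replicate 1.

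For 26 ligand and receptor pairs known to bind, the levels of the partners were set side by side. The list is not complete, as it pairs Tnfsf10 with Tnfrsf10b but not with the decoys Tnfrsf22 and Tnfrsf23. Tnfsf10 and Tnfrsf22 were each detected in both libraries, so the counts below hold for the listed pairs only. Both partners were detected in 11 pairs in replicate 2, in 5 pairs in replicate 1 and in the same 5 pairs in both libraries. These were Fasl with Fas, Tnfsf10 with Tnfrsf10b, Tnfsf13 with Tnfrsf13b, and Tnfsf13b with Tnfrsf13b and with Tnfrsf13c. The 6 further pairs of replicate 2 all included Tnf, Ltb, Tnfsf14 or Tnfsf12 as the ligand. The receptor had the higher TPM in 16 pairs in replicate 2, in 13 in replicate 1 and in 12 in both. Pairs share members, so these counts are not independent of each other.

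**Figure D2:**
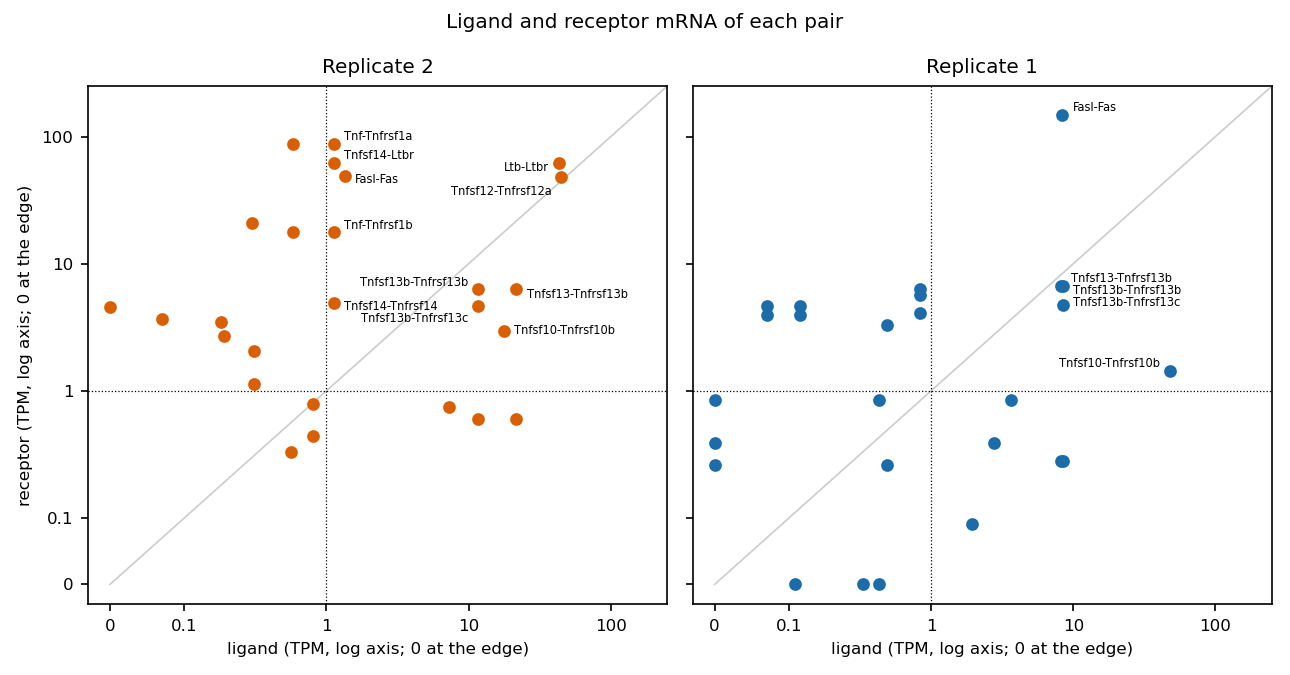
Ligand TPM (x axis) against receptor TPM (y axis), both on log axes with 0 drawn at the edge, for 26 ligand and receptor pairs in replicate 2 (left) and replicate 1 (right); dotted lines stand at 1 TPM, the diagonal marks equal levels, and pairs with both partners at or above 1 TPM are named. The named pairs number 11 in replicate 2 and 5 in replicate 1, and Tnfsf10 with Tnfrsf10b lies below the diagonal in both.

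Mean TPM reached 1 in 30 members, of which 16 passed 2-fold with more in replicate 2, 7 passed it with less and 7 did neither. Set against the 39.3% higher and 28.2% lower over all tested genes, this is 16 of 30 and 7 of 30, and nothing particular to the family is read from it. The median log2 ratio of the members was 1.16, against 0.19 for all tested genes. The members' levels in the libraries were loosely related, with a Spearman rho of 0.48 and a Pearson r of 0.48 for log2(TPM + 1) over the 44 members above 0 in either library. These 44 points share the same libraries, so the coefficient is a description.

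The log2 ratio of the members followed the GC content of their transcripts. Over the 30 tested members, GC content averaged over annotated transcripts and the log2 ratio had a Spearman rho of 0.80 and a Pearson r of 0.79, both across genes of the same 2 libraries. Of the 6 members under 45% GC, 5 were over 2-fold lower in replicate 2 and 0 were higher, with a median log2 ratio of -1.37. Of the 12 members at or above 55% GC, 10 were higher and 0 lower, with a median of 5.62. The 3397 tested genes in that band had a median of 3.97, and the 2743 tested genes under 45% had a median of -1.66. All tested genes thus showed the same order of bands.

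In the bands between, 2 of 6 members were higher and 2 lower at 45 to 50% GC, and 4 of 6 were higher and 0 lower at 50 to 55%. Their median log2 ratios were 0.44 and 1.29, against -0.60 and 1.24 for all tested genes of each band. GC content had a Spearman rho of 0.45 with the members' TPM in replicate 2 and of -0.27 in replicate 1, over all 45 members. GC content and any other property that the libraries differ in cannot be told apart here.

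**Figure D3:**
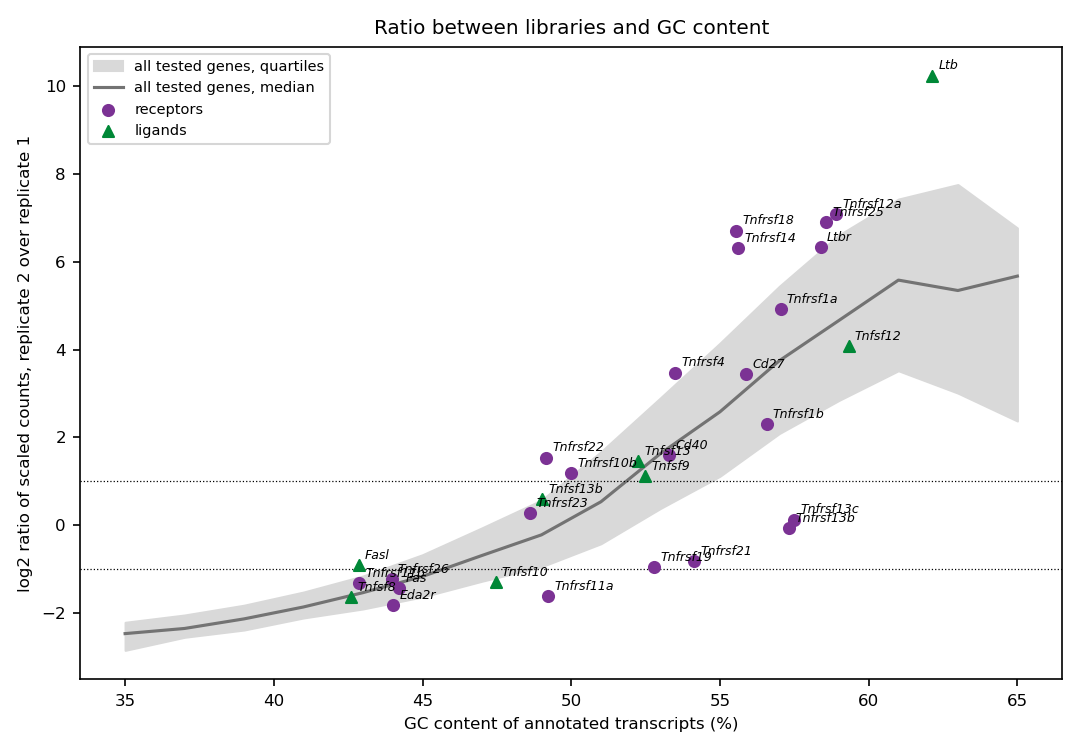
Log2 ratio of scaled counts, replicate 2 over replicate 1 (y axis), against GC content averaged over annotated transcripts in percent (x axis) for the 30 tested members, receptors as circles and ligands as triangles; the line and band are the median and quartiles of all tested genes, dotted lines mark 2-fold, and genes with 0 counts on a side take a prior of 0.5 counts. Ltb lies at 62.1% GC and a log2 ratio of 10.23, and Tnfrsf13b and Tnfrsf13c lie near 0 at 57.3% and 57.5% GC.

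With the GC trend subtracted, 10 of the 30 tested members were over 2-fold higher in replicate 2 and 6 over 2-fold lower, and the median log2 ratio was 0.23. Over all genes under the same setting, 22.7% were higher, 20.5% lower and 43.1% either. With members at 0 counts in replicate 1 taken at the floor of 3 counts, a setting chosen after seeing the data, 8 were higher. The subtraction changed the sign of 8 members' log2 ratios, 6 of which had been past 2-fold. Tnfrsf1b among these turned from 2.30 to -1.11, with 56.6% GC averaged over annotated transcripts and 53.7% in its main transcript. Tnfrsf12a had a remainder of 2.56, resting on 3 counts in replicate 1, and Ltbr of 2.04. Ltb, at 0 counts in replicate 1, had a remainder of 4.43 with the prior of 0.5 counts and 1.66 at the floor of 3 counts. Tnfrsf13b at -3.85, Tnfrsf13c at -3.74, Tnfrsf21 at -2.92 and Tnfrsf19 at -2.39 lay below the trend. In Tnfrsf13b and Tnfrsf13c the most abundant transcript had a lower GC content than the mean of the annotated transcripts, 50.5% against 57.3% and 50.6% against 57.5%. The same held for Tnfrsf21, 52.4% against 54.1%, and for Tnfrsf19, 48.8% against 52.8%. With the GC content of the main transcript in place of the mean, the Spearman rho over the 30 members was 0.94. The remainders were not recomputed with it, so the sign changes and the distances from the trend are shown for the averaged GC content only.

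Neighbouring members did not always differ in the same direction. By a gap of less than 200 kb, 22 members formed 9 clusters. Cd27, Ltbr and Tnfrsf1a lie on chromosome 6 between 125232622 and 125362484, and all 3 were higher in replicate 2, with log2 ratios of 3.43, 6.32 and 4.92. With the GC trend subtracted these were 0.39, 2.04 and 1.27. Ltb, Tnf and Lta lie on chromosome 17 between 35194439 and 35205351, and of these only Ltb had a mean TPM of at least 1. Tnfrsf26, Tnfrsf22 and Tnfrsf23 lie on chromosome 7 between 143607659 and 143685872, and their log2 ratios were -1.23, 1.54 and 0.28, with GC contents of 44.0%, 49.2% and 48.6%. In this cluster the member lowest in GC was the one called lower in replicate 2, and its log2 ratio was 0.09 with the GC trend subtracted.

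Tnfsf12 and Tnfsf13 are uncertain at the level of single genes, because the read-through gene Tnfsfm13 shares exons with both. Tnfsfm13 overlaps 48.3% of the exon bases of Tnfsf12 and 60.0% of those of Tnfsf13, and was at 23.1 TPM in replicate 2, against 31.9 TPM in replicate 1. In replicate 2 the authors' estimate gave 845 expected counts to Tnfsf12, 420 to Tnfsf13 and 585 to Tnfsfm13. In replicate 1 it gave 39 to Tnfsf12, 120 to Tnfsf13 and 508 to Tnfsfm13. The read-through gene thus held the larger count of the 3 in replicate 1 and not in replicate 2. Genes on the opposite strand overlap exons of Tnfsf13, Tnfsf9, Tnfrsf18, Tnfrsf23 and Tnfrsf26, and the use of strand in counting is not given in the sources used here. Tnfsf13os, antisense to Tnfsf13, was at 7.28 TPM in replicate 2 compared with 0.46 TPM in replicate 1.

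Of the 45 members, 27 have more than 1 annotated transcript in the deposited tables. In 16 of these, with at least 20 expected counts in each library, the same transcript had the highest share of its gene in 13 and a different one in 3. For Tnfsf13 the transcript ENSMUST00000018896.9 held 97.2% in replicate 2 and 0% in replicate 1, where ENSMUST00000108648.2 held 100%. For Fasl the full transcript ENSMUST00000000834.3 of 1937 bases held 100% in replicate 2 and 23.5% in replicate 1. The short transcript ENSMUST00000193648.1 of 406 bases held 0% of Fasl in replicate 2 and 76.5% in replicate 1, from 16.4 expected counts that made up 6.42 of its 8.38 TPM. For Tnfrsf23 the transcript ENSMUST00000035742.9, annotated as subject to nonsense-mediated decay, held 92.4% in replicate 2 and 23.6% in replicate 1. The shorter transcript ENSMUST00000152703.1 of 1476 bases held 7.59% and 76.4%, from 1.35 and 15.2 expected counts.

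Genes that carry the receptors' signal inside the cell were measured as a list of 47 adaptors, kinases, ubiquitin enzymes, death effectors, NF-kappaB subunits with their inhibitors, and sheddases. Of these, 45 were detected in replicate 2, 33 in replicate 1 and 32 in both. They summed to 852 TPM in replicate 2, against 990 TPM in replicate 1. Among 46 tested genes, 19 were over 2-fold higher in replicate 2 and 12 lower, with a median log2 ratio of 0.69. The background of all tested genes is again 39.3% higher and 28.2% lower.

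The highest means of the list belonged to Nfkbia, Xiap, Adam10, Cflar and Chuk. Nfkbia, the NF-kappaB inhibitor that NF-kappaB itself induces, was at 106 TPM in replicate 2, against 65.1 TPM in replicate 1. Xiap, an inhibitor of caspases, was at 26.1 TPM in replicate 2 compared with 117 TPM in replicate 1. Adam10, a membrane protease, was at 22.3 TPM in replicate 2, against 105 TPM in replicate 1. Cflar, which blocks caspase-8 at death receptors, was at 31.6 TPM in replicate 2, against 83.6 TPM in replicate 1. Chuk, the kinase IKK-alpha, was at 20.4 TPM in replicate 2 compared with 81.0 TPM in replicate 1. Of these 5, Nfkbia alone had the higher TPM in replicate 2, and its log2 ratio of 0.85 turned to -1.75 with the GC trend subtracted. That remainder rests on 55.1% GC averaged over annotated transcripts, while the main transcript of Nfkbia has 52.9%, and it was not recomputed.

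Map3k14, the kinase NIK that acts below Ltbr and Cd40, had 266 counts and 4.37 TPM in replicate 2 and 0 counts in replicate 1, at least 69.6-fold higher at the floor of 3 counts. Rbck1, a subunit of the linear ubiquitin ligase, was at 57.2 TPM in replicate 2, against 0.23 TPM from 4 counts in replicate 1. Nfkbib, an NF-kappaB inhibitor, was at 27.6 TPM in replicate 2, against 0.08 TPM from 1 count in replicate 1. The counting intervals of these ratios are wide, 140 to 1318 for Rbck1 and 65.2 to 14444 for Nfkbib. The lowest log2 ratios were those of Tab3 at -2.40, Adam10 at -2.10 and the TRAF-binding protein Tank at -2.04, and that of Tank was 0.11 with the GC trend subtracted. By group, 6 of 8 NF-kappaB subunits and inhibitors were over 2-fold higher in replicate 2 and 1 was lower, and 0 of 6 caspases and death effectors were higher and 1 was lower. With the GC trend subtracted, 2 of 8 and 0 of 6 were higher and 1 in each group was lower, against 22.7% higher and 20.5% lower over all genes. The median GC content was 57.2% and 47.8%, and the difference between the groups was not tested. GC content and the log2 ratio of the 46 tested genes had a Spearman rho of 0.87, a description across genes of the same libraries.

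**Figure D4:**
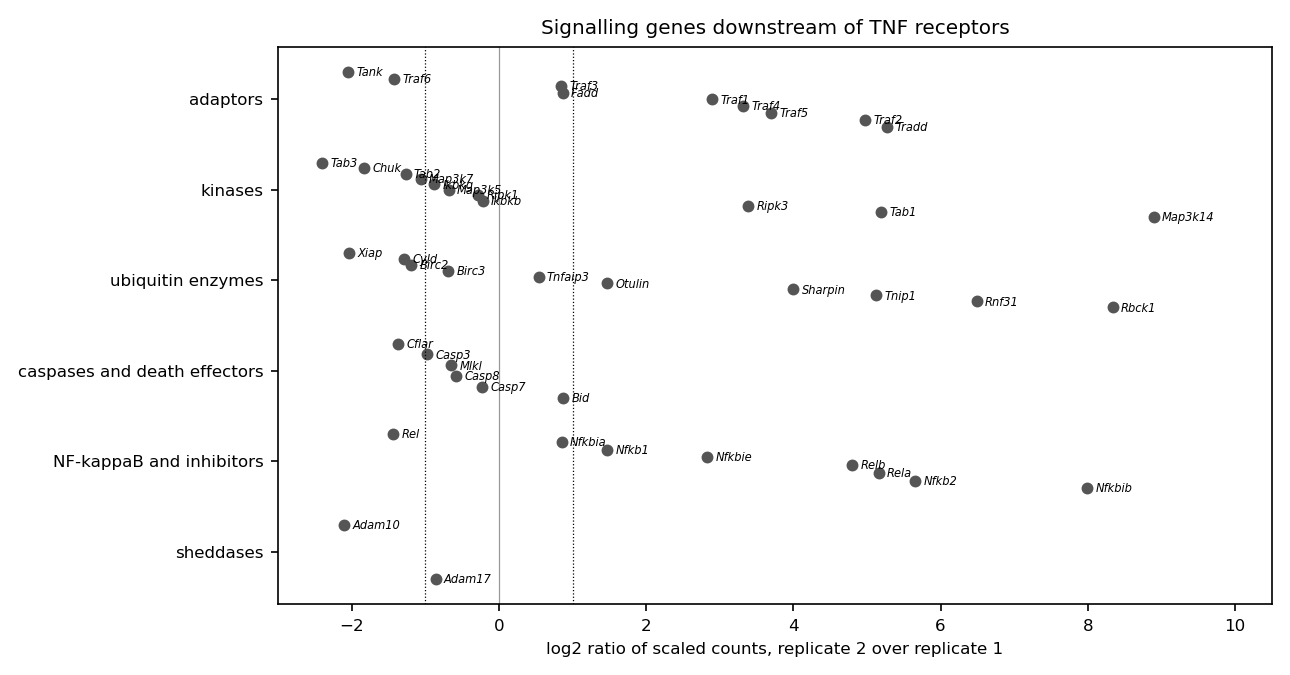
Log2 ratio of scaled counts, replicate 2 over replicate 1 (x axis), of the 46 tested signalling genes by group, each point 1 gene and dotted lines at 2-fold; Map3k14, at 0 counts in replicate 1, takes a prior of 0.5 counts. Tab3 lies lowest at -2.40, and the 6 caspases and death effectors all lie below the line of 2-fold higher.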

How the data were processed

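Polyadenylated RNA of lung tissue from 1 animal was measured in 2 libraries. The authors deposited, per the file headers, an expected count for each gene and transcript, in which a read that matches several features is divided between them. TPM, FPKM and the percent of a gene's abundance held by each transcript were also deposited by the authors. The assembly is mm10 and the annotation release M4 per the deposited descriptions. Which aligner and quantifier were run is not given in the sources used here.

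Symbols, positions, GC content and sequences came from GENCODE M21 on GRCm38. By identifier, 42462 of 43346 genes matched. Expected counts were rounded and scaled with TMM factors (1.10 in replicate 2 and 0.913 in replicate 1) of edgeR 4.0.16 in R 4.3.3. The log2 ratio used a prior of 0.5 counts, for genes whose mean TPM reached 1. Intervals of ratios are exact Clopper-Pearson intervals at 95%, and a count of 0 is read against 3 counts (0.175 CPM in replicate 2 and 0.186 CPM in replicate 1). Both cover counting error only, as no molecular identifiers mark single molecules. The GC trend is a lowess fit with a span of 0.3. Tables were handled in pandas 2.3.3 under Python 3.11.15, intervals came from scipy 1.17.1, the trend from statsmodels 0.14.6 and plots from matplotlib 3.10.9. The ratio step was also run on simulated counts in which most genes were unchanged and no GC effect was put in. In these libraries 67.5% of tested genes passed 2-fold, so that simulation does not test the scaling under the conditions met here.

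The members, lists and alternatives (DESeq2 1.42.0 size factors among them) were chosen with earlier results of these data known. Values are given for each member at or above 1 TPM in either library. Ratios with intervals are given for the 10 members of highest mean and the 5 highest and 5 lowest ratios with at least 100 counts. Of the signalling list, the 5 highest means and the 3 highest and 3 lowest ratios are named. Ratios given beside other members, and the members named off the GC trend, were chosen after their values were seen.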

Additional observations from a re-analysis of the deposited data

How the results depend on the processing

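With a TPM minimum of 5, members detected in both libraries numbered 8, ligands 3 and receptors 5, against 19, 6 and 13 at a minimum of 1. With 1 library left out, detected members numbered 22 to 29, ligands 7 to 9 and receptors 15 to 20. Mean summed levels were 119 TPM for ligands and 301 TPM for receptors, and 204 and 468 in CPM, which is not per length. In a single library they were 84.2 to 153 TPM and 248 to 354 TPM. A mean TPM of at least 5 left 15 members, 9 higher in replicate 2 and 2 lower, because fewer genes were tested. It left 38 signalling genes with a median log2 ratio of -0.25, against 0.69. Subtracting the GC trend gave 10 higher members, or 8 with zero counts at the floor of 3 (chosen after seeing the data), and 11 higher and 7 lower signalling genes, and 43.1% of all genes then passed 2-fold. It changed the sign of 8 of 30 members' log2 ratios. Among the 14 members whose ratios were recomputed under each setting, these were Tnfsf12 at -0.63, Cd40 at -0.11 and Tnfrsf11b at 0.19; the cause was not tested. Ratios of TPM gave 14 higher and 9 lower members. With DESeq2 size factors, total counts or a prior of 2 counts, 16 were higher and 6 or 7 lower. With no filter beyond 1 count, 23 of 44 were higher and 10 lower. The median log2 ratio of all genes, 0.19, was 0.45 with total counts and 0.01 with TPM. The Spearman rho with GC content was 0.94 with the main transcript's. At 100 or more counts, 6 of 7 members kept their highest transcript. No paired analysis was possible because the design has 1 group, and leaving out a library leaves no ratio. Low counts in replicate 1 (3 for Tnfrsf12a, 2 for Tnf, 4 for Rbck1, 1 for Nfkbib) limit those ratios.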
